A study of Mus musculus with 9 samples.

Results

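The genes described here are the transcription factor NRF2, its inhibitor KEAP1 and the genes around them: Nfe2l2 (which encodes NRF2), Nfe2l1 (NRF1), Nfe2l3 (NRF3), Keap1, Sqstm1 (p62), Osgin1, Bach1, Mafg and Mafk. They were chosen by name as known parts of the NRF2 system, at a time when earlier results of these data were known. Each of the 9 symbols matched 1 gene among the 56691 genes measured. RNA of NIH/3T3 cells, an established line of wild-type mouse embryonic fibroblasts grown in DMEM with serum, was sequenced in 9 libraries. The 3 control libraries came from cells with no listed treatment, 3 libraries came from cells that received 10 J/cm2 of UVA, and 3 came from cells given that dose together with alpha-arbutin, a glucoside of hydroquinone (called co-treated below). The study asked whether alpha-arbutin counters photodamage. The titles of the UVA libraries carry the word MOCK, and these libraries were placed by their treatment label. The sources used here do not give the dose of alpha-arbutin, its order relative to UVA, the time of harvest or whether each library is its own culture. All p-values therefore measure only the spread between these libraries, which may be technical, and all results are for 1 cell line.

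NRF2 is a transcription factor of the cap'n'collar family. KEAP1 holds it in the cytoplasm and brings it to a CUL3 ubiquitin ligase for breakdown by the proteasome, until oxidants or electrophiles modify cysteines of KEAP1. NRF2 then pairs with a small MAF protein on antioxidant response elements and switches on glutathione, thioredoxin, quinone and iron genes, a response that ultraviolet A is known to engage in skin cells through reactive oxygen and free haem. BACH1 occupies the same elements with small MAF proteins as a repressor and is removed when haem rises. The autophagy receptor p62 binds KEAP1 and can carry it to autophagosomes. NRF1 is a membrane-bound relative that is processed on leaving the endoplasmic reticulum and is known for driving proteasome genes. Much of this control acts on proteins, and the data here are RNA levels, which do not measure the activity of NRF2.

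The members whose promoter windows held a searched motif are shown first. Of these, Osgin1, Nfe2l2 and Mafk rose under UVA and Mafg was not called. Sqstm1 also rose, without a searched motif in its window. A link between the motifs and the RNA changes was not tested. RefSeq promoter windows (250 bases before and 50 after each annotated start, build GRCm38.p6) were found for 9 of 9 members, 13 windows in all because several starts are annotated for Nfe2l1. Both strands were searched for the antioxidant response element core TGACNNNGC and for the AP-1 core TGANTCA. The element bound by cap'n'collar and small MAF pairs, which is the AP-1 core followed directly by GCA, was added after the windows had been read, and it contains the AP-1 core. The 250 bases before the start are printed 5′ to 3′ on the strand of the gene, with matches in capitals.
Osgin1, chr8:119436897-119437146 (+ strand): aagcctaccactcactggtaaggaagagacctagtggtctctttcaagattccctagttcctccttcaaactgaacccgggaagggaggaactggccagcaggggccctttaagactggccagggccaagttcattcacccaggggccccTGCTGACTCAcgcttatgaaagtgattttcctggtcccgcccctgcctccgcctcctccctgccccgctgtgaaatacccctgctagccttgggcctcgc
Nfe2l2, chr2:75704664-75704913 (- strand): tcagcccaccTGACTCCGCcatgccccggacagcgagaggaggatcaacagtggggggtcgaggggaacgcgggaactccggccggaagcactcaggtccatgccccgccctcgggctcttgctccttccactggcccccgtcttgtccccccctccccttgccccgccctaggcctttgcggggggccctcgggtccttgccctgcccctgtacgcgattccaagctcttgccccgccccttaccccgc
Mafk, chr5:139791286-139791535 (+ strand): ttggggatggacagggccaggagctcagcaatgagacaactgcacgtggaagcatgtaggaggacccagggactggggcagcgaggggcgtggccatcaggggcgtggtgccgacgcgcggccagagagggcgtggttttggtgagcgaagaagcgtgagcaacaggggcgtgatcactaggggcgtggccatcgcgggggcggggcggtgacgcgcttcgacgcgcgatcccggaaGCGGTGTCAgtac
Mafg, chr11:120633548-120633797 (- strand): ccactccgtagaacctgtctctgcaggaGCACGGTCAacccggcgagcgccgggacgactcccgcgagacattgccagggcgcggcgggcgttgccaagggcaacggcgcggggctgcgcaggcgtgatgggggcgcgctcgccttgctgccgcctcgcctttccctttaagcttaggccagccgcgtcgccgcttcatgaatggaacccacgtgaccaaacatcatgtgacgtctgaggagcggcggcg

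In the Osgin1 window the capitals mark a cap'n'collar and small MAF element at positions -100 to -91 from the start, read on the opposite strand as TGAGTCAGCA. That longer element was held by 0.423% of 32851 promoter windows of the same length, and the AP-1 core inside it by 7.81%. The antioxidant response core matched in Nfe2l2 as TGACTCCGC at positions -240 to -232. It matched on the opposite strand in Mafk, as TGACACCGC at positions -13 to -5, and in Mafg, as TGACCGTGC at positions -222 to -214. This core was held by 12.4% of all windows and by 3 of the 9 members. The windows of Nfe2l1, Nfe2l3, Keap1, Bach1 and Sqstm1 held none of the searched letters, which says nothing about elements outside them. These matches are descriptions of sequence, since no binding was measured here.

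The libraries were even. Between 21026 and 21815 genes had a count, from library totals of 16.3 to 20.86 (in units of 1e6). Fibroblast markers dominated and moved with the groups: the summed level of 11 markers was 12371 to 12736 counts per 1e6 counts (CPM) in control, 9021 to 9288 CPM in UVA and 8713 to 9280 CPM in co-treated libraries. Vim (mean 3237 CPM) and Fn1 (3186) were the highest of the 11, and Lum (0.0886) was nearly absent. Markers of epithelium (1.40 to 4.48 CPM), endothelium (4.69 to 6.74), immune cells (6.53 to 10.8), muscle (0.813 to 3.35) and pigment cells (0.166 to 0.813) were near the floor in every library, with Epcam, Krt5, Krt19, Cd3e, Myod1 and Dct at 0. The part of the lower fibroblast marker level in the results was not tested. In RNA from whole cultures, fewer cells of a kind and less RNA per cell cannot be told apart.

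Under UVA, the RNA of NRF2 and of some other members was modestly higher, while that of the NRF2 relative NRF1 was lower. Nfe2l2, Sqstm1, Mafk and Osgin1 rose, by factors of 1.16 to 1.61, and Nfe2l1 fell to 0.790 of its control level. Keap1, Bach1 and Mafg did not pass the test. Of the 8 members with enough counts to be tested, 5 were called (adjusted p below 0.05 in edgeR's quasi-likelihood test with Benjamini-Hochberg adjustment over 14151 genes), 4 higher and 1 lower. Among all tested genes 29.3% were called, 14.7% higher and 14.6% lower. The groups of the same 5 members did not overlap, against 42% of all tested genes, and 6 of the 8 had an unadjusted p under 0.05, against 38.9%. With limma on log2(TPM + 1), where 34.1% of the calls over all genes were higher in place of 50.2%, 5 members were called too. The members' median log2 fold change was 0.17, beside 0.00286 over all tested genes. Because the members were chosen with earlier results of these data known, these shares describe the set and do not test it.

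Adding alpha-arbutin to UVA moved none of the 8 tested members past the threshold. The 2 groups share the UVA dose, so their comparison is the one that bears on the compound. No group received alpha-arbutin without UVA. An action of the compound by itself and a change in the UVA response therefore cannot be told apart. In it 5 of 14151 genes were called (0.0353%), 4 of them higher (0.0283%) and 1 lower (0.00707%). At an unadjusted p under 0.05 stood 1 member, Sqstm1, against 6.76% of all tested genes, and DESeq2 also called 0 members. The groups of 1 member, Nfe2l2, did not overlap, against 10.8% of all tested genes. The median log2 difference was 0.03 over the members and 6.03e-05 over all tested genes.

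Against control, co-treated cells had 5 members higher (Sqstm1, Nfe2l2, Mafk, Mafg and Osgin1) and 1 lower (Nfe2l1). Over all tested genes 25.8% were called in this comparison, 13% higher and 12.9% lower. Groups did not overlap for 6 of the 8 members, against 39.7% of all tested genes, and 7 had an unadjusted p under 0.05, against 35.8%. This comparison shares its control libraries with the UVA comparison and its co-treated libraries with the comparison of the compound, so it is given beside them and not as further evidence.

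**Figure D1:**
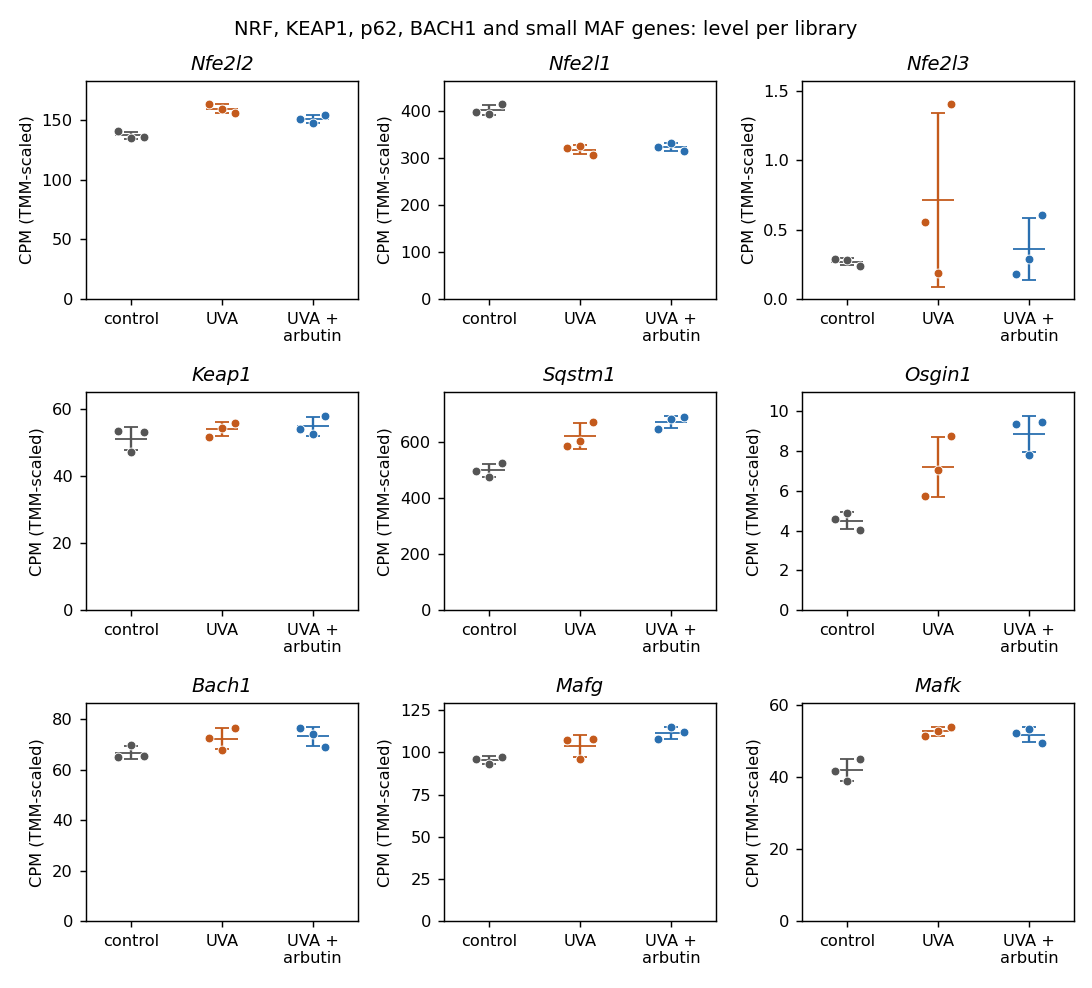
Level of each of the 9 members in each library, in TMM-scaled CPM on a linear axis from 0. Points are libraries, the long line is the group mean and the bars are ± 1 SD (n = 3). The UVA and co-treated points lie above the control points for Nfe2l2, Sqstm1, Osgin1 and Mafk and below them for Nfe2l1; the highest Nfe2l3 point, 1.40 CPM, is UVA replicate 3.

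Nfe2l2, the gene of NRF2 itself (ENSMUSG00000015839, mm39 chr2:75505857-75534985, minus strand), was measured at 140, 135 and 136 CPM in the control libraries. The UVA libraries held 163, 159 and 156 CPM and the co-treated libraries 151, 148 and 154 CPM. The 3 groups did not overlap: control was lowest, UVA highest and co-treated in between. The log2 fold change was 0.22 ± 0.04 (SE) for UVA against control (adjusted p = 0.000271), with a 95% interval of 0.13 to 0.30. For co-treated against UVA it was -0.08 ± 0.04 (adjusted p = 0.791), with an interval of -0.16 to 0.01. That interval holds both no difference and a return of part of the UVA difference. Against control the co-treated level was higher by 0.14 ± 0.04 (adjusted p = 0.0168), a call that is lost without control replicate 2 (adjusted p = 0.0755), control replicate 3 (0.0745) or co-treated replicate 3 (0.0748), and without the filter on low counts (0.0584).

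Nfe2l1 (ENSMUSG00000038615, mm39 chr11:96708240-96720794, minus strand) encodes NRF1 and changed in the opposite direction. The control libraries held 398, 394 and 414 CPM, the UVA libraries 321, 325 and 307 CPM, and the co-treated libraries 324, 331 and 314 CPM. Every irradiated library lay below every control library, while the UVA and co-treated libraries overlapped. With UVA the level fell by 0.34 on the log2 scale (SE 0.04, adjusted p = 7.81e-08). Co-treated against UVA the difference was 0.03 ± 0.04, with an interval of -0.06 to 0.11 (adjusted p = 0.937), so a recovery by more than 0.11 lies outside the interval. Against control the co-treated level fell by 0.32 (adjusted p = 3.27e-07).

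The balance between the 2 factors, taken as the ratio of their deposited FPKM (fragments scaled to exon length and library total, a level per length), differed between control and irradiated libraries without overlap. That separation adds nothing to the results of the 2 genes taken singly. Every irradiated library was below every control library for Nfe2l1 and above every one for Nfe2l2, so the ratio had to separate. Nfe2l1 stood at 1.98, 2.03 and 2.13 times the Nfe2l2 level in control libraries. Under UVA it stood at 1.37, 1.42 and 1.38 times and with co-treatment at 1.5, 1.57 and 1.42 times. The group means were 2.05 ± 0.0746, 1.39 ± 0.0279 and 1.495 ± 0.0726 (SD, n = 3). The two-sided exact permutation test gave p = 0.1 for UVA against control, the smallest that 3 against 3 libraries allow, and p = 0.2 for co-treated against UVA. Of 15 such tests on 5 ratios the lowest adjusted p was 0.273; with 3 libraries a group no ratio could pass 0.05, whatever its values.

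Nfe2l3 (ENSMUSG00000029832, mm39 chr6:51409650-51435748, plus strand) encodes NRF3, the third of the related NRF factors, and was barely detected. Each of the 3 control libraries had 5 counts of it, the UVA libraries had 10, 3 and 28, and the co-treated libraries had 3, 5 and 11. Most UVA counts came from UVA replicate 3, and the groups overlapped. It did not pass the filter on low counts. The summed counts of 41 in UVA and 15 in control give a depth-scaled ratio of 2.79, with a 95% interval of 1.51 to 5.42 that covers counting error only. Without UVA replicate 3 the ratio was 1.40 (0.612 to 3.15), an alternative chosen after the counts were seen. Without UVA replicate 2, the lowest of the UVA libraries, Nfe2l3 passed the filter and was called (log2 fold change 1.85, adjusted p = 0.0207), so the call depends on which UVA library is left out. With no filter, edgeR gave adjusted p = 0.110 for UVA against control and 0.849 for co-treated against UVA.

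Keap1 (ENSMUSG00000003308, mm39 chr9:21141026-21150657, minus strand) encodes the adaptor that binds NRF2 for ubiquitination. Its level was 53.3, 47.0 and 53.0 CPM in control, 51.6, 54.1 and 55.7 CPM in UVA and 54.0, 52.3 and 57.9 CPM in co-treated libraries. The 3 groups overlapped. The log2 difference of UVA from control was 0.08 ± 0.06 (adjusted p = 0.400), with an interval of -0.05 to 0.20, and that of co-treated from UVA was 0.02 ± 0.06 (adjusted p = 0.964), with an interval of -0.10 to 0.15. The intervals leave room for small differences in either direction. It shares 3404 bases with Gm16754 on the other strand, which had 365 counts over all libraries, and the strand used in counting is not stated.

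Sqstm1 (ENSMUSG00000015837, mm39 chr11:50090193-50101654, minus strand) encodes p62, which competes with NRF2 for KEAP1 and is itself known as an NRF2 target. Control libraries held 496, 475 and 524 CPM, UVA libraries 584, 603 and 671 CPM, and co-treated libraries 645, 681 and 687 CPM. All irradiated libraries were above all control libraries, and the highest UVA library lay among the co-treated ones. Sqstm1 rose with UVA by 0.31 ± 0.05 on the log2 scale (adjusted p = 3.82e-06). In co-treated cells it was higher than in UVA cells by 0.11 ± 0.05, with an interval of 0.02 to 0.21, and did not pass after adjustment (adjusted p = 0.666; 0.0175 unadjusted in the same edgeR fit). Against control the co-treated level rose by 0.43 ± 0.05 (adjusted p = 2.06e-08). The ratio of Sqstm1 to Keap1 in FPKM was 13.7 ± 0.576 in control, 16.1 ± 0.661 under UVA and 17.2 ± 0.913 with co-treatment (SD, n = 3). The exact permutation p was 0.1 for both irradiated groups against control and 0.3 between them. Sqstm1 overlaps Mrnip on the other strand by 750 bases; Mrnip had 384 counts in all.

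Osgin1 (ENSMUSG00000074063, mm39 chr8:120160863-120172995, plus strand), a growth inhibitor induced by oxidative stress and a known NRF2 target, had the largest rise of the 8 tested members in both irradiated groups against control. It was at 4.59, 4.88 and 4.02 CPM in control, 5.76, 7.04 and 8.76 CPM in UVA and 9.33, 7.82 and 9.45 CPM in co-treated libraries. These levels rest on 79 to 87 counts per control library, 104 to 175 per UVA library and 135 to 171 per co-treated library. No irradiated library reached down to a control library, and UVA replicate 3 lay within the co-treated range. Its log2 fold change was 0.69 ± 0.16 for UVA against control (adjusted p = 0.00170) and 0.98 ± 0.16 for co-treated against control (adjusted p = 2.30e-05). For co-treated against UVA it was 0.30 ± 0.15 (adjusted p = 0.741), with an interval of -0.01 to 0.60, and leaving out 1 library gave 0.16 (without UVA replicate 1) to 0.48 (without UVA replicate 3). Its promoter window is the one with the cap'n'collar and small MAF element printed above.

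Bach1 (ENSMUSG00000025612, mm39 chr16:87495833-87530234, plus strand) encodes the haem-sensing repressor of the same elements. It was measured at 65.1, 69.8 and 65.5 CPM in control, 72.4, 68.0 and 76.4 CPM in UVA and 76.6, 74.0 and 69.2 CPM in co-treated libraries. The groups overlapped, because control replicate 2 was above UVA replicate 2 and co-treated replicate 3. The log2 difference of UVA from control was 0.12 ± 0.06 (adjusted p = 0.132) and that of co-treated from UVA was 0.02 ± 0.06 (adjusted p = 0.9747). Co-treated against control it was 0.13 ± 0.06 (adjusted p = 0.0897), and it was called without co-treated replicate 3 (0.17, adjusted p = 0.0483).

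The small MAF proteins lack an activation domain of their own and serve NRF2, NRF1 and BACH1 alike as DNA-binding partners. Mafk (ENSMUSG00000018143, mm39 chr5:139777268-139788408, plus strand) was at 41.9, 39.1 and 45.2 CPM in control, 51.5, 52.9 and 54.1 CPM in UVA and 52.4, 53.6 and 49.6 CPM in co-treated libraries. Irradiated and control libraries were apart, and the irradiated groups overlapped. Mafk rose with UVA by 0.33 ± 0.06 (adjusted p = 0.000186) and differed by -0.03 ± 0.06 between co-treated and UVA (adjusted p = 0.958). Co-treated against control it rose by 0.30 ± 0.06 (adjusted p = 0.000616).

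Mafg (ENSMUSG00000051510, mm39 chr11:120515943-120524426, minus strand) was at 96.1, 92.9 and 97.5 CPM in control, 107, 96.1 and 108 CPM in UVA and 108, 115 and 112 CPM in co-treated libraries. UVA replicate 2 lay within the control range, while the other UVA libraries and all co-treated libraries lay above it. UVA against control gave 0.12 ± 0.05 (adjusted p = 0.0761), which passed without UVA replicate 2 (0.17, adjusted p = 0.0164). Mafg rose in co-treated cells against control by 0.22 ± 0.05 (adjusted p = 0.00130). The difference between co-treated and UVA was 0.10 ± 0.05 (adjusted p = 0.739), and 0.05 without UVA replicate 2, so a Mafg response particular to co-treatment was not shown. Mafg shares 124 bases with Sirt7 on the same strand, a gene with 2211 counts in all that rose by 0.27 with UVA (adjusted p = 0.0492) and by 0.32 in co-treated cells against control (adjusted p = 0.0249). The part of shared reads in the Mafg values was not tested.

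**Figure D2:**
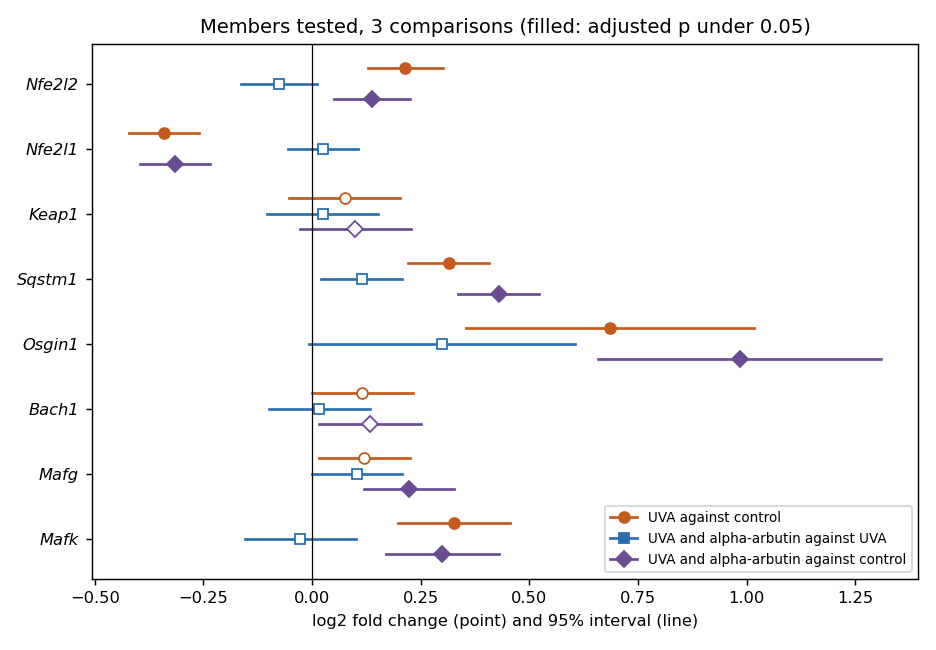
Log2 fold changes of the 8 tested members in 3 comparisons that share libraries. Points are edgeR estimates, lines are 95% intervals and filled points have an adjusted p under 0.05. The open squares of co-treated against UVA lie between -0.08 (Nfe2l2) and 0.30 (Osgin1); Nfe2l1 is the one gene with filled points below 0.

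Compared per length of exon, the members spanned a wide range of RNA levels. In control cells the mean FPKM was 149 for Sqstm1, 74.2 for Nfe2l1, 36.3 for Nfe2l2, 17.1 for Mafg, 10.9 for Keap1, 10.9 for Bach1, 10.8 for Mafk, 1.69 for Osgin1 and 0.09 for Nfe2l3. Neighbours in this order had separate ranges over the 3 libraries except for Keap1, Bach1 and Mafk, which overlapped. In UVA and co-treated cells Mafk stood above both, at 13.5 and 13.3 FPKM, and only Bach1 (11.6 and 11.8 FPKM) and Keap1 (11.4 and 11.6 FPKM) overlapped as neighbours. The NRF2 to KEAP1 balance at the RNA level, Nfe2l2 to Keap1, was 3.33 ± 0.200, 3.66 ± 0.226 and 3.41 ± 0.105 for control, UVA and co-treatment (SD, n = 3), with exact permutation p = 0.2 for UVA against control. The activator to repressor ratio, Nfe2l2 to Bach1, was 3.35 ± 0.183, 3.60 ± 0.254 and 3.36 ± 0.236, with exact permutation p = 0.3 for the same groups. Mafg to Mafk went from 1.58 ± 0.0758 in control to 1.37 ± 0.0927 under UVA and 1.496 ± 0.0697 with co-treatment (exact permutation p = 0.1 for UVA against control and 0.2 between the irradiated groups).

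**Figure D3:**
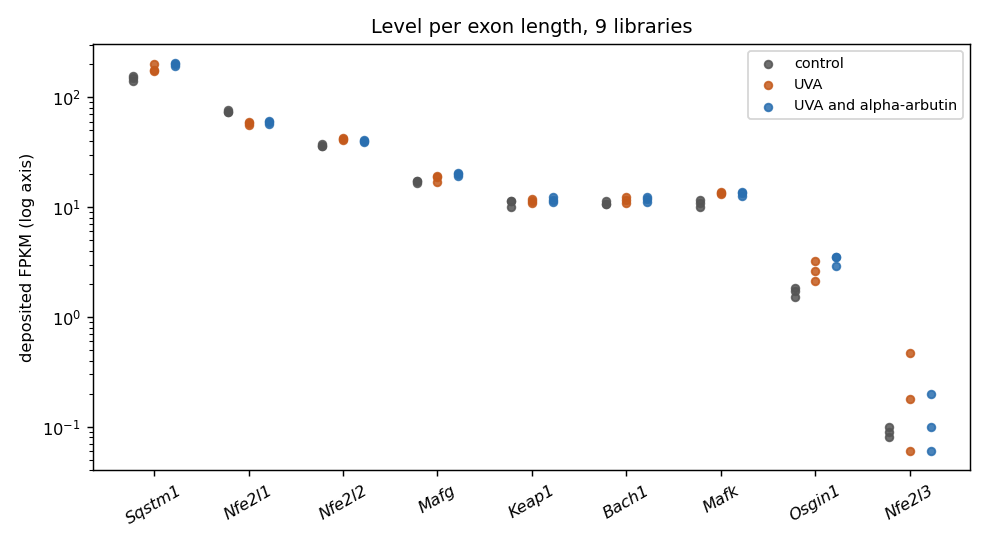
Deposited FPKM of the 9 members in each of the 9 libraries on a log axis, ordered by the control mean. Each point is 1 library, coloured by group. Sqstm1 is at 149 and Nfe2l3 at 0.09 FPKM in the control mean, and Keap1, Bach1 and Mafk overlap in the control libraries.

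The genes with a pattern most like that of Nfe2l2 were Cdk1, Eif4a1 and Adi1. Likeness was the root mean square difference in log2 CPM, centred on each gene, over the 9 libraries, among the 4141 other genes called under UVA. It was 0.0199 for Cdk1, 0.0245 for Eif4a1 and 0.0251 for Adi1, and the SD of Nfe2l2 itself over the 9 libraries was 0.0978 on this scale. These genes were picked for the likeness, and it carries no test.

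Calls among the other known regulators of these factors went in both directions under UVA, as they did over all genes. Of 28 tested genes of 29 listed (ubiquitin ligase parts, NRF1 processing enzymes, co-activators, further BACH and MAF factors), 7 rose and 5 fell, beside 14.7% and 14.6% of all tested genes, with a median log2 fold change of 0.02. Vcp, the segregase that extracts NRF1 from the endoplasmic reticulum, rose from 779 ± 15.2 to 990 ± 39.4 CPM (SD, n = 3; log2 fold change 0.35, adjusted p = 9.05e-08). Ddi2, the protease that cleaves NRF1, rose by 0.23 (adjusted p = 0.00112). Ngly1 (0.16, adjusted p = 0.226) and Syvn1 (0.00251, adjusted p = 0.983), further NRF1 processing genes of the list, were not called. Ddi2, Ngly1 and Syvn1 were named after their values were seen. Bach2, the relative of Bach1, fell from 14.2 ± 1.20 to 8.26 ± 1.34 CPM (-0.79, adjusted p = 3.39e-05). Usp11 fell by 0.72 (adjusted p = 7.14e-05) and Amer1, a KEAP1-binding protein also known as WTX, fell by 0.37 (adjusted p = 0.000185). In co-treated against UVA cells 0 of the 28 passed. Trim16, a p62 and NRF2 partner, came nearest at 0.26 (adjusted p = 0.141), and it was called without the filter on low counts (adjusted p = 0.0464). Its level was 56.5, 55.5 and 51.0 CPM in UVA and 62.5, 67.6 and 65.2 CPM in co-treated libraries, which did not overlap. Against control 7 rose and 4 fell in co-treated cells, beside 13% and 12.9% of all tested genes, with a median of 0.03.

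Proteasome subunit genes, which NRF1 is known to drive, rose under UVA in the libraries in which Nfe2l1 RNA fell. Of 32 listed and tested subunits 27 rose and 0 fell, beside 14.7% and 14.6% of all tested genes, with a median log2 fold change of 0.16. On log2(TPM + 1) with limma, 13 of them were called. Psmc3, an ATPase of the regulatory particle, was at 193, 190 and 188 CPM in control and 224, 226 and 234 CPM in UVA libraries (0.26, adjusted p = 2.61e-05). Psmc4 rose by 0.25 (adjusted p = 4.47e-05), Psma7 by 0.24 (8.08e-05) and Psmd2 by 0.21 (9.08e-05). In co-treated against UVA cells 0 of 32 passed. Below 0 lay 30 of 32 estimates, with a median of -0.06. Both comparisons use the same UVA libraries with opposite sign, so the opposite directions are not independent of each other. The estimates nearest to the threshold were -0.12 for Psma7 (adjusted p = 0.645) and -0.12 for Psmb2 (0.686). Against control 14 rose and 1 fell in co-treated cells, beside 13% and 12.9% of all tested genes, with a median of 0.12. Without control replicate 3 or without co-treated replicate 3, 9 passed.

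NRF2 target genes moved both ways under UVA, and 4 of them rose when alpha-arbutin was added. Of 29 tested genes of 30 listed, 14 rose and 5 fell with UVA, beside 14.7% and 14.6% of all tested genes, with a median of 0.09. Prdx1, a peroxiredoxin, rose from 818 ± 3.87 to 1058 ± 54.9 CPM (0.37, adjusted p = 1.02e-07). Gclm, the modifier subunit of glutamate-cysteine ligase, rose by 0.38 (adjusted p = 2.79e-05), Tkt, the transketolase, by 0.28 (8.30e-06) and Fth1, the ferritin heavy chain, by 0.29 (2.49e-05). The cystine transporter gene Slc7a11 fell by 0.50 (adjusted p = 8.04e-06), and Slc48a1, a haem transporter, fell by 0.23 (0.000217). Hmox1, the haem oxygenase that is the usual readout of NRF2 and BACH1, fell by 0.24 (adjusted p = 0.0306), with groups that overlapped. That call was lost without control replicate 1 (adjusted p = 0.0830), control replicate 3 (0.177), UVA replicate 1 (0.105) or UVA replicate 3 (0.0961), and with DESeq2 (0.0665).

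In co-treated against UVA cells 4 NRF2 targets rose and 0 fell, beside 0.0283% and 0.00707% of all tested genes. Of the 29 estimates 25 were above 0, with a median of 0.14, beside 6.03e-05 over all tested genes. The 4 called targets are all the genes called higher in that comparison. Earlier results of these data were known when the list was written, so the number of called targets is not independent evidence of a direction. Slc7a11 was at 44.5, 44.7 and 37.9 CPM in UVA and 71.2, 59.5 and 55.3 CPM in co-treated libraries, beside 60.8, 57.7 and 60.7 CPM in control. Co-treated and control libraries overlapped, and all UVA libraries lay below both. It rose by 0.55 ± 0.08 against UVA (adjusted p = 0.00102). Hmox1 was at 19.98, 22.5 and 20.3 CPM in UVA and 28.4, 28.3 and 29.6 CPM in co-treated libraries, beside 25.0, 22.4 and 26.4 CPM in control. Every co-treated library was above every other library. It rose by 0.46 ± 0.08 (adjusted p = 0.0153), and by 0.22 against control (adjusted p = 0.0404).

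Txnrd1, thioredoxin reductase, stood at 472, 499 and 501 CPM in UVA and 585, 587 and 575 CPM in co-treated libraries, a rise of 0.25 ± 0.04 (adjusted p = 0.00327). Slc48a1 rose by 0.27 ± 0.04 (adjusted p = 0.00684), from 139 ± 6.84 to 167 ± 3.64 CPM, beside 163 ± 3.17 CPM in control (SD, n = 3). Gclm differed by 0.21 (adjusted p = 0.464). The calls of Hmox1, Slc48a1 and Txnrd1 depended on single libraries and on the tool. Slc7a11 kept its call whichever 1 library was left out and lost it with limma (adjusted p = 0.389 on log2(TPM + 1)). The list's count ran from 1 without co-treated replicate 2 and 2 without UVA replicate 1 or co-treated replicate 3 to 9 without UVA replicate 3, was 10 without the filter on low counts and 0 with limma on log2(TPM + 1) or log2(FPKM + 1). Hmox1 was lost without UVA replicate 1 (adjusted p = 0.106), co-treated replicate 2 (0.0809) or co-treated replicate 3 (0.0978), Slc48a1 without the same libraries (0.0557, 0.0809 and 0.0686), and Txnrd1 without co-treated replicate 2 (0.0651). Against control 17 of 29 rose and 0 fell in co-treated cells, beside 13% and 12.9% of all tested genes, with a median of 0.19.

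Genes of haem and iron handling that BACH1 is known to repress share 7 of 11 members with the NRF2 targets. Under UVA 2 of the 11 rose and 3 fell, beside 14.7% and 14.6% of all tested genes, with a median of 0.05. In co-treated against UVA cells 3 rose (Slc7a11, Slc48a1 and Hmox1) and 0 fell, with a median of 0.13. Among all tested genes 0.0283% rose and 0.00707% fell in that comparison. The count was 1 without UVA replicate 1, co-treated replicate 2 or co-treated replicate 3, 5 without UVA replicate 3 and 0 with limma. Against control 4 rose and 0 fell in co-treated cells, beside 13% and 12.9% of all tested genes.

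The autophagy partners of p62 were called about as often as other genes. Of 17 tested, 3 rose and 3 fell under UVA, beside 14.7% and 14.6% of all tested genes, with a median of 0.07. The 4 with the lowest p were Becn1 at 0.17 (adjusted p = 0.00717), Nbr1 at 0.16 (0.00970), Atg7 at 0.25 (0.0146) and Calcoco1 at -0.22 (0.0270). Of 18 alternatives, Becn1 kept its call in 17, Nbr1 in 14, Atg7 in 13 and Calcoco1 in 12. The count of 6 fell to 3 without any 1 of control replicates 1, 2 and 3 or UVA replicates 2 and 3, and was 3 with DESeq2 (all higher), 3 with limma on log2(TPM + 1) (all lower) and 1 with limma on log2(FPKM + 1). In co-treated against UVA cells 0 of 17 passed, with estimates from -0.13 (Map1lc3a) to 0.09 (Wdfy3). Against control 2 rose and 3 fell in co-treated cells, beside 13% and 12.9% of all tested genes, and 8 passed without UVA replicate 3.

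**Figure D4:**
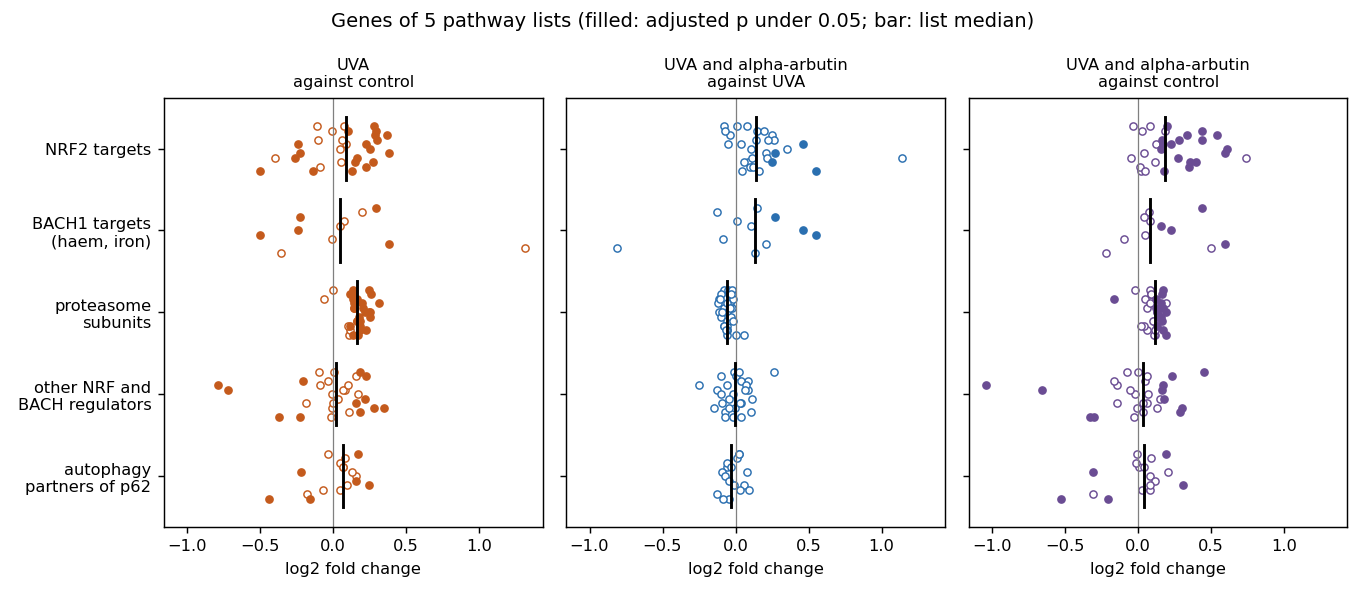
Log2 fold changes of the tested genes of 5 pathway lists in the 3 comparisons, which share libraries. Each point is a gene, filled where the adjusted p is under 0.05, and the bar is the list median. Of the 32 proteasome genes, 30 lie to the right of 0 under UVA (median 0.16) and 30 to the left in co-treated against UVA (median -0.06), where the 4 filled NRF2 targets lie to the right.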

How the data were processed

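RNA was measured in 9 libraries of 3 groups. Per the file headers, the authors' deposited table holds, for each Ensembl gene and library, raw counts and FPKM; per the submitters' processing notes, the tools were HTSeq 0.6.1, HISAT2 2.2.1, bcl2fastq 2.20.0.422 and cutadapt 1.9.1 with the build mm39, no role given. The deposited FPKM equals the count over exonic size and library total (510219 of 510219 values within 0.01). Columns with the prefix NC were taken as control, since every other prefix matches another title. Counts were tested with edgeR 4.0.16 in R 4.3.3 (filterByExpr, TMM, quasi-likelihood F-test, two-sided, 3 groups in 1 fit): 14151 of 56691 genes passed the filter, and calls needed an adjusted p below 0.05 (Benjamini-Hochberg) over all of them. Levels are TMM-scaled CPM, and fold changes carry the fit's SE. Total counts of 16.3 to 20.86 (in units of 1e6) per library limit the precision, but libraries of a group differed beyond counting error (chi-square per degree of freedom 2.29 to 5.17); the intervals on the Nfe2l3 count ratios (95%) cover counting error only. The replicate numbers of the groups were not used as pairs in the main fit. The members, the pathway lists and the comparisons were chosen with earlier results of these data known. All 9 members were named, and from each list up to 4 genes with the smallest p in UVA against control and in co-treated against UVA. Alternatives were other scalings (DESeq2 size factors, total counts), DESeq2 1.42.0, no filter, limma 3.58.1 on log2(TPM + 1) and log2(FPKM + 1 or 0.1), fits of 2 groups, a replicate block and leaving out each library. Protein sequences and a genome of build mm39 were not used here.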

Additional observations from a re-analysis of the deposited data

How the results depend on the processing

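Members called varied little: 0 passed in co-treated against UVA under each of 18 alternatives, 5 in UVA against control (7 without UVA replicate 2, where Mafg and Nfe2l3 were called too), and 5 or 6 in co-treated against control. The 5 genes called over all genes in co-treated against UVA became 29 without the filter, 0 with limma on log2(TPM + 1), log2(FPKM + 1) or log2(FPKM + 0.1), 19 with the replicate block, and 1 (without co-treated replicate 2) to 22 (without UVA replicate 3) when 1 library was left out; the cause was not tested. In that comparison the small differences of 4 genes changed sign on leaving out 1 library: Keap1 ran from -0.0189 to 0.0561 (-0.00464 without UVA replicate 1 and -0.0189 without co-treated replicate 3), Bach1 from -0.0234 to 0.0599 (-0.0234 without UVA replicate 2 and -0.0161 without co-treated replicate 1), Mafk from -0.0525 to 0.00437 (without co-treated replicate 3) and Map1lc3a from -0.242 to 0.00906 (without UVA replicate 2). Over all 18 alternatives, which include other scales, the log2 fold change for UVA against control ran from 0.44 to 0.82 for Osgin1 and 0.25 to 0.36 for Sqstm1. It ran from 0.16 to 0.23 for Nfe2l2, 0.27 to 0.38 for Mafk and -0.39 to -0.32 for Nfe2l1. Leaving out 1 library alone gave 0.51 to 0.82 for Osgin1.

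Replicate numbers are shared between groups, and the deviations of same-numbered libraries correlated weakly at most. Over 9 such pairs the correlation ran from -0.00578 to 0.0969, beside -0.0968 to 0.0278 over 18 pairs of different numbers. Between UVA and co-treated libraries the same-numbered pairs gave 0.0711, 0.0429 and 0.0969, each above every pair of different numbers. Whether same-numbered irradiated libraries were handled together is not stated and was not tested. With the replicate block 4359 genes and 5 members were called in UVA against control, 19 and 0 in co-treated against UVA, and 3930 and 6 in co-treated against control. In co-treated against UVA the block gave 8 NRF2 targets in place of 4 and called Trim16 (adjusted p = 0.0469). At 3 libraries a group, changes the size of the Nfe2l2 difference between co-treated and UVA cells lie within the intervals, and Nfe2l3 lies at the limit of the depth.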
